A study of Mus musculus with 12 samples.

Results

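Expression of 39 mouse interferon-stimulated genes, all outside the OAS family, was compared in MDSCs that carried no nanoparticles (NPs), blank NPs or rapamycin NPs. They were taken from the 35303 gene symbols of the count table by name, from a list of known targets of interferon. The list was chosen with earlier results of these data known, so the counts of calls below describe it and are not a test of it. By the role of the gene products the list holds 10 GTPases, 4 IFIT genes, 6 signaling factors, 5 nucleic acid sensors, 3 genes of protein ADP-ribosylation, and 11 other antiviral effectors. All 39 reached the minimum of 2 counts over the 12 libraries, and 35 had a mean normalized count of at least 10; the other members were Mx2, Ifit3, Ifit3b, and Ifi44.

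Type I interferons bind the receptor pair IFNAR1 and IFNAR2, whose kinases JAK1 and TYK2 activate STAT proteins. STAT2 and IRF9 are parts of the complex ISGF3, which binds the interferon-stimulated response element (ISRE) of target promoters, whereas interferon gamma acts through the GAS element. The targets act as antiviral proteins, as sensors of foreign nucleic acids, or as factors that raise or limit the signal, and myeloid cells express many of them without infection.

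MDSCs are immunosuppressive myeloid cells, and those sequenced here had been grown from the bone marrow of female C57BL/6 mice aged 6 to 10 weeks and labelled WT, over 3 days with IL-6 and GM-CSF, and then purified by CD11b and Gr1. The 3 groups of 4 libraries each were MDSC (cells without NPs), MDSC-NP-Blk (cells with blank PLGA NPs bound to their surface through azido and DBCO groups), and CITED (cells with PLGA NPs that contain rapamycin, an inhibitor of mTOR). All 12 libraries came from cells kept for 24 hours with IL-6 at 40 ng/ml, so that no group was free of this cytokine. The titles call the replicates biological, but whether each came from its own mouse or marrow preparation, and whether the MDSC group received the azido sugar, is not stated in the sources used here. P-values therefore measure the spread between these libraries. The labels give CNS as the tissue, in contrast to the marrow culture of the methods. The 7 markers looked up for MDSCs (among them Itgam, Ly6g, and Ly6c2) were detected in every group. Itgam and Ly6g were higher in CITED than in MDSC, Ly6c1 and Ly6c2 were lower, and Ptprc, S100a8, and S100a9 differed less. Each library held 20604809 to 37855478 counts.

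The values below are normalized counts, that is counts divided by library size and TMM factor (a scaling factor from the trimmed mean of ratios) and brought to the scale of the mean library. Fold changes are on the log2 scale, with standard errors (SE) and adjusted p-values from edgeR's quasi-likelihood test over 17676 symbols. A gene is called where its adjusted p lies below 0.05 and its log2 fold change is at least 1 in either direction, and "rose" or "fell" is used where the adjusted p lies below 0.05, whatever the size.

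To show what the promoters of these genes share, the 300 bases from 250 before to 50 after the start of the canonical transcript were read on GRCm39. The core of the ISRE, GAAA followed after any 2 bases by another GAAA on either strand, occurred in 22 of the 39 windows (56.4%), against 3.83% of 21751 windows of protein-coding genes. The palindrome TTCNNNGAA, the core of GAS, occurred in 10 windows (25.6%), against 8.81% of all. A match to 1 motif can overlap a match to the other, as in the window of Bst2, and a match describes the letters and not a bound site. The following stretches reach from 130 bases before to 20 bases after the start, 5′ to 3′ on the strand of the gene, with matches to the ISRE core in capitals. Rtp4, Isg15, Usp18, Ifit1, Rsad2, Slfn5, and Xaf1 are shown because they were called higher in CITED against both other groups, and Ifit2, from the gene cluster of Ifit1, and Cmpk2, beside Rsad2 in the genome, because they were not.
Rtp4, chr16:23428516-23428665, plus strand: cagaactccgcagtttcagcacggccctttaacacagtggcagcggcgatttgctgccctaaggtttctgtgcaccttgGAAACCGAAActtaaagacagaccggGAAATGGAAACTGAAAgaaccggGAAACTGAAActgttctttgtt
Isg15, chr4:156285284-156285433, minus strand: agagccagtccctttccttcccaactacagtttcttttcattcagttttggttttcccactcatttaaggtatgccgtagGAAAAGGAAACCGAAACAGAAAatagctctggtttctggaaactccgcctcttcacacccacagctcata
Usp18, chr6:121222727-121222876, plus strand: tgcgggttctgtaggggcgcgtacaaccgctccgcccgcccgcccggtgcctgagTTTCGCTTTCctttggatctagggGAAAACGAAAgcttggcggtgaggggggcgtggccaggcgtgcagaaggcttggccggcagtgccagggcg
Ifit1, chr19:34618141-34618290, plus strand: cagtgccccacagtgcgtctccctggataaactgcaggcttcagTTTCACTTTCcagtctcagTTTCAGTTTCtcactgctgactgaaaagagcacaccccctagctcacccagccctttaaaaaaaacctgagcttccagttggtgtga
Rsad2, chr12:26506432-26506581, minus strand: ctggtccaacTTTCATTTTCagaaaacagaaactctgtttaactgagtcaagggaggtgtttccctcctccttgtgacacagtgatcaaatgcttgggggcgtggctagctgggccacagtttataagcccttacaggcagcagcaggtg
Slfn5, chr11:82842798-82842947, plus strand: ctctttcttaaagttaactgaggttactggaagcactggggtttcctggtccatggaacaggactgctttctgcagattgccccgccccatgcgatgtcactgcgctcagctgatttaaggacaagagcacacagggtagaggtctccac
Xaf1, chr11:72192267-72192416, plus strand: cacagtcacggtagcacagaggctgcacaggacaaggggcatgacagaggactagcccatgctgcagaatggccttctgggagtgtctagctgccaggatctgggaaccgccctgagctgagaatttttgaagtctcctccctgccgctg
Ifit2, chr19:34527915-34528064, plus strand: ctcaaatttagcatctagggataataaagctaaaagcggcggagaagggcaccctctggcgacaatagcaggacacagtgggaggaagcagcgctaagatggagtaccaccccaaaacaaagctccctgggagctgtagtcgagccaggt
Cmpk2, chr12:26519073-26519222, plus strand: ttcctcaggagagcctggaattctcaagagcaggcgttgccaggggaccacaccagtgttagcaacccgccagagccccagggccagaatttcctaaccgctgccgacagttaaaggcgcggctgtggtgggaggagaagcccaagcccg
Rtp4 held 4 matches in its window, Isg15 held 3, Usp18 and Ifit1 held 2 each, and Rsad2 and Slfn5 held 1 each, that of Slfn5 outside the stretch shown. No match lay in the windows of Xaf1, Ifit2, and Cmpk2, which says only that these letters are not within them. Among genes not shown, Zbp1 also held 4 matches, and Bst2, Irgm1, Ifit3, and Ifit3b held 2 each. Of the 8 members called higher in CITED against MDSC-NP-Blk, 7 (87.5%) held an ISRE core, and of the other 31 members 15 (48.4%) did. Ifit3b is among these 7, and its call rested on 13 counts in CITED against 0 in MDSC-NP-Blk and was not stable. Of the 13 called higher in CITED against MDSC, 9 (69.2%) held one, and of the other 26 members 13 (50%). With the adjusted p alone, 14 of the 25 that rose (56%) and 2 of the 4 that fell (50%) in CITED against MDSC held one. With blank NPs against MDSC it was 5 of 13 (38.5%) and 3 of 5 (60%). In CITED against MDSC-NP-Blk it was 14 of 21 (66.7%) and 1 of 2 (50%).

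In each comparison more members were called higher than lower, and Rtp4 was called higher in all 3. For blank NPs against MDSC this excess was lost when libraries were scaled by their totals alone, and a test against a log2 fold change of 1 called 0 members there. In CITED against MDSC, 13 of the 39 members were called higher, against 3.28% of all symbols tested, and 2 were called lower, against 6.7%. In MDSC-NP-Blk against MDSC, 4 were called higher, against 1.88%, and 1 was called lower, against 2.86%. In CITED against MDSC-NP-Blk, which share the NP and differ in its cargo, 8 were called higher, against 0.651%, and 1 was called lower, against 2%. The members are better expressed than most symbols. Among the 12170 genes with a mean normalized count of at least 10, the shares called higher were 4.26%, 2.4%, and 0.723% in the same order of comparisons, and the 35 members in that range gave 13, 4, and 7 such calls.

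Without the limit on fold change, 25 members rose and 4 fell in CITED against MDSC, where 22.2% of all symbols did in each direction. The counts were 13 and 5 in MDSC-NP-Blk against MDSC, against 19.9% and 18.6%, and 21 and 2 in CITED against MDSC-NP-Blk, against 10.5% and 11.4%. The median log2 fold change of the 39 members was 0.80, 0.22, and 0.32 in these comparisons, and that of all symbols was -0.052, -0.027, and 0.000. The comparisons share libraries and are not independent of each other. In bulk RNA, more cells that express a gene and more RNA of that gene per cell cannot be told apart. The scaling matters for the comparisons with MDSC, because scaling by library totals alone moved the median of all symbols to -0.323 and -0.286. On that scale 10 members remained called higher in CITED against MDSC (Bst2, Gbp2, and Irf9 lost), and 1, Rtp4, in MDSC-NP-Blk against MDSC, where 2 (Mx2 and Ifit2) were called lower and Gbp2, Ifi204, and Ifitm3 lost their calls. The median of the members was then 0.52 and -0.04, so that its sign with blank NPs turned, and in CITED against MDSC-NP-Blk it was 0.30.

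**Figure D1:**
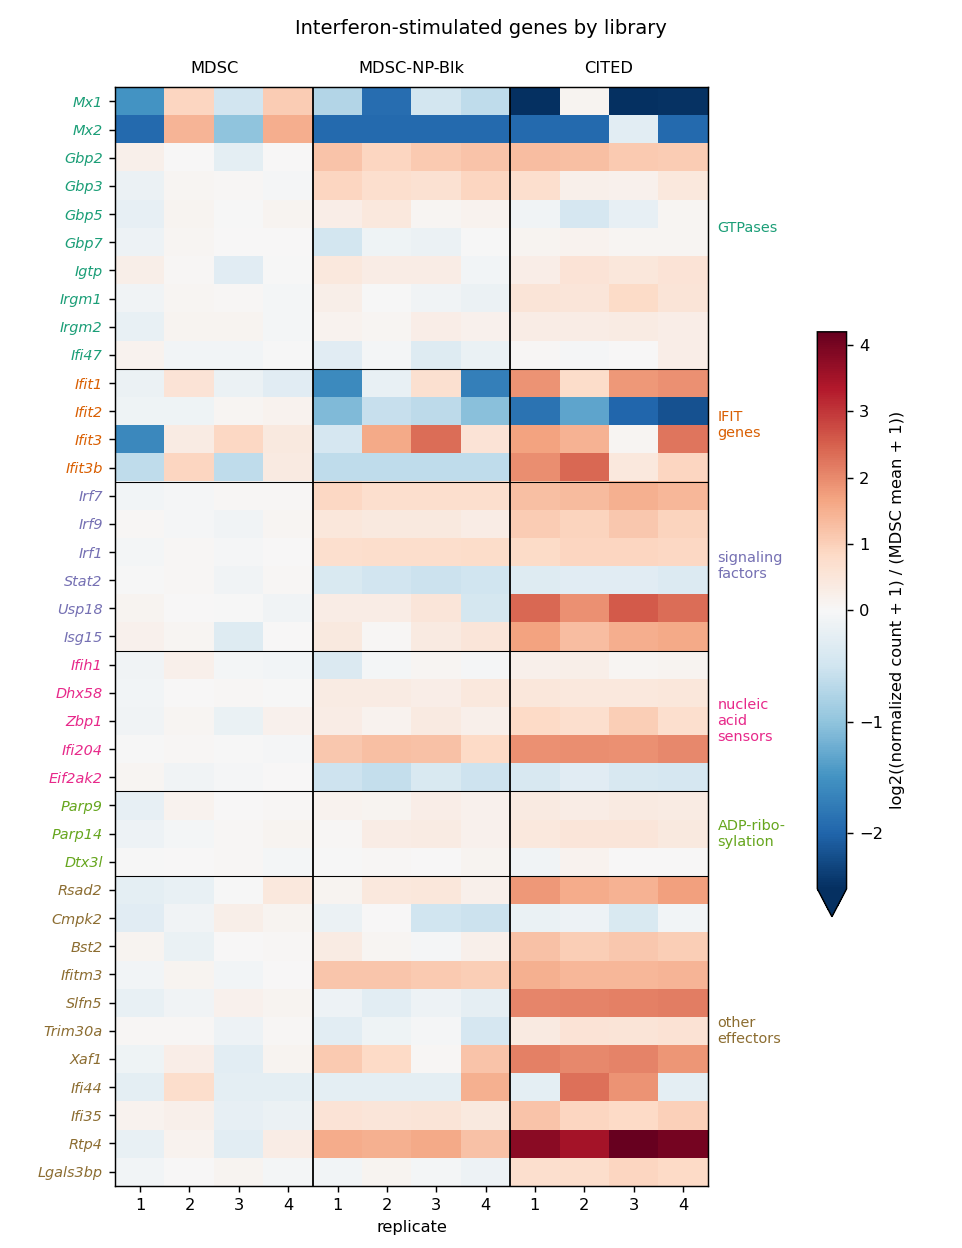
Heat map of the 39 members (rows, coloured by role) in the 12 libraries (columns, replicates 1 to 4 of each group). Colour gives the log2 ratio of the normalized count plus 1 to the MDSC mean of that value, a mean taken on the log scale. Values below -2.5 are in the darkest blue. Rtp4, Usp18, and Slfn5 were high in all 4 CITED libraries, Ifitm3 and Gbp2 were high with both kinds of NP, and Ifit2 was low with both.

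The 4 CITED libraries resembled each other in this respect. For each library, the median log2 ratio to the MDSC mean, taken on the log scale, was found over the 35 better expressed members. It was 0.69, 0.58, 0.80, and 0.60 in the CITED libraries and 0.25, 0.12, 0.27, and 0.18 in the MDSC-NP-Blk libraries. The MDSC libraries lay between -0.07 and 0.05. No library of a group overlapped with those of another on this measure.

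Upstream of the members, no count was seen for any of the 8 interferon genes looked up. Of 43 genes of the pathway (ligands, receptors, kinases, inhibitors, and factors that induce interferon), the 8 ligands Ifnb1, Ifna1, Ifna2, Ifna4, Ifna5, Ifng, Ifnl2, and Ifnl3 had 0 counts in all 12 libraries, which allows each a share of up to 7.92e-06% to 1.46e-05% of a library (3 counts; counting error only). Of the 35 that could be tested, 1 was called in CITED against MDSC and in MDSC-NP-Blk against MDSC, and edgeR called 0 in CITED against MDSC-NP-Blk (16 with an unadjusted p below 0.05). This was Socs1, whose product inhibits JAK kinases, at 821 to 1068 in the MDSC libraries, 1992 to 2124 with blank NPs, and 2354 to 2696 in CITED. Its log2 fold changes against MDSC were 1.38 in CITED and 1.09 in MDSC-NP-Blk. With the adjusted p alone and Socs1 included, 21 of the 35 rose and 5 fell in CITED against MDSC, 20 rose and 2 fell in MDSC-NP-Blk against MDSC, and 10 rose and 3 fell in CITED against MDSC-NP-Blk. Of all symbols tested, 22.2% rose and 22.2% fell in CITED against MDSC. The shares were 19.9% and 18.6% in MDSC-NP-Blk against MDSC, and 10.5% and 11.4% in CITED against MDSC-NP-Blk. All 5 interferon regulatory factors of the pathway list (Irf2, Irf3, Irf4, Irf5, and Irf8) rose with both kinds of NP against MDSC after TMM scaling. Other scalings were not run for the genes of this list, Socs1 included, so whether its calls hold on library totals is not known.

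The signaling factors carry the interferon signal onward or limit it. Against MDSC, 4 of the 6 were called higher in CITED (Irf7, Irf9, Usp18, and Isg15) and 0 in MDSC-NP-Blk, with median log2 fold changes of 1.20 and 0.36. DESeq2 also called 0 of them with blank NPs, where 4 of the 6 had an unadjusted p below 0.05 in edgeR. Against MDSC-NP-Blk, 2 of the 6 were called higher in CITED (Usp18 and Isg15), with a median of 0.63. Of all symbols tested, 3.28% were called higher and 6.7% lower in CITED against MDSC. The shares were 1.88% and 2.86% with blank NPs against MDSC, and 0.651% and 2% in CITED against MDSC-NP-Blk. They apply to each role below as well.

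Usp18 encodes the protease that removes ISG15 from proteins and also dampens the type I interferon receptor. Its normalized counts in replicates 1 to 4 were 44.8, 41.9, 41.4 and 39.3 in MDSC, 52.3, 51.7, 60.5 and 30.4 in MDSC-NP-Blk, and 226, 160, 252 and 215 in CITED. All CITED libraries lay far above the others, whereas MDSC and MDSC-NP-Blk overlapped. The log2 fold change was 2.34 ± 0.202 (SE; adjusted p = 5.53e-12) in CITED against MDSC and 2.12 ± 0.201 (SE; adjusted p = 3.06e-10) in CITED against MDSC-NP-Blk. With blank NPs it was 0.22 ± 0.218 (SE; adjusted p = 0.451) against MDSC, with a 95% interval of -0.22 to 0.67, and its sign turned on the scale of library totals. Isg15, the ubiquitin-like protein that USP18 removes, was at 83.4, 78, 58 and 74.5 in MDSC, 98.2, 75.9, 94.9 and 103 in MDSC-NP-Blk, and 235, 181, 212 and 222 in CITED. It too was higher in every CITED library than in any other, by 2.89-fold against MDSC (adjusted p = 9.76e-10) and 2.3-fold against MDSC-NP-Blk (adjusted p = 4.96e-07). Of the 31-base words in the Isg15 transcript, 12.4% recur in other genes, so a part of its count may belong to them.

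Irf7, the factor that amplifies the induction of interferon alpha genes, changed in steps. It was at 277, 282, 299 and 299 in MDSC, 531, 469, 472 and 468 in MDSC-NP-Blk, and 696, 724, 824 and 756 in CITED, with no overlap between any of the groups. The log2 fold change was 0.74 ± 0.0868 (SE; adjusted p = 9.38e-09) in MDSC-NP-Blk against MDSC and 0.63 ± 0.0832 (SE; adjusted p = 2.91e-07) in CITED against MDSC-NP-Blk, and it was 1.38 in CITED against MDSC. Irf9, the DNA-binding part of ISGF3, was at 690, 662, 636 and 709 in MDSC, 944, 886, 899 and 831 in MDSC-NP-Blk, and 1426, 1283, 1490 and 1289 in CITED. Its groups did not overlap either, and its log2 fold changes were 0.40 (adjusted p = 2.90e-05) with blank NPs against MDSC, 0.62 (adjusted p = 2.06e-08) in CITED against MDSC-NP-Blk, and 1.02 (adjusted p = 4.25e-14) in CITED against MDSC. The last value lies just over the limit, and Irf9 was not called on library totals (0.75), nor without MDSC replicate 3 or CITED replicate 3.

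Irf1 and Stat2 departed from this pattern. Irf1, a transcription factor of the response to interferon gamma, was at 1209, 1303, 1235 and 1271 in MDSC, 2060, 2114, 2096 and 2155 in MDSC-NP-Blk, and 2206, 2353, 2350 and 2302 in CITED. Most of its difference from MDSC was present with blank NPs, at 0.75 ± 0.0556 (SE; adjusted p = 3.04e-13) on the log2 scale, and the step from there to CITED was 0.13 (95% interval 0.02 to 0.24; adjusted p = 0.0954). Stat2, the partner of IRF9 in ISGF3, fell with both kinds of NP. It was at 1262 to 1382 without NPs, 914 to 1027 with blank NPs, and 1057 to 1091 in CITED, and its log2 fold change was -0.48 ± 0.0652 (SE; adjusted p = 2.00e-07) with blank NPs and -0.31 ± 0.0651 (SE; adjusted p = 1.23e-04) in CITED. Irf9 and Stat2, whose products meet in ISGF3, thus went in opposite directions against MDSC. In CITED against MDSC-NP-Blk the log2 fold change of Stat2 was 0.17 (95% interval 0.03 to 0.30, adjusted p = 0.0712), with the same sign as that of Irf9 (0.62).

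**Figure D2:**
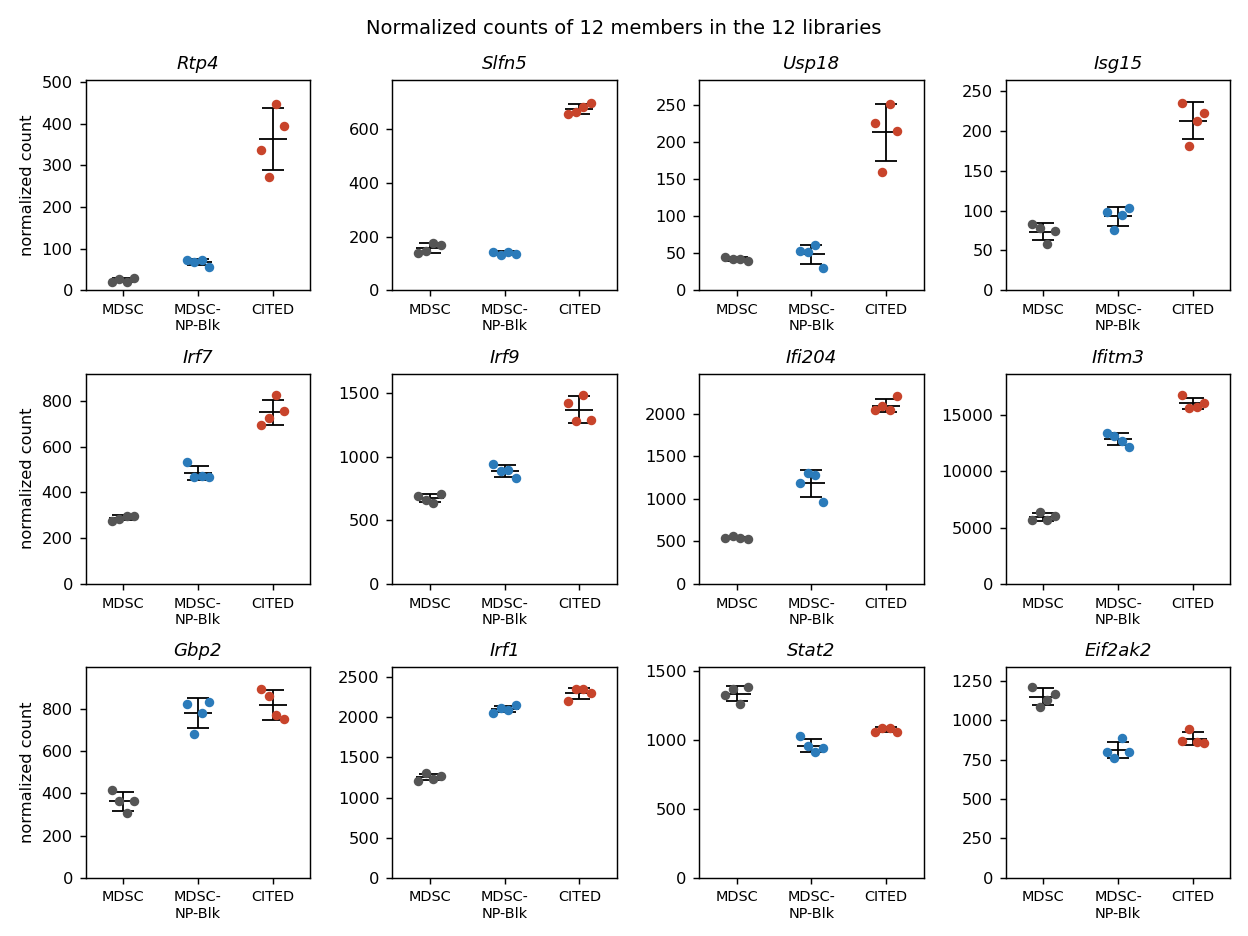
Normalized counts of 12 members (y axis from 0, each panel with its own range) in MDSC, MDSC-NP-Blk, and CITED; points are the 4 libraries of a group, and the horizontal mark with bars gives the mean and SD. Slfn5, Usp18, and Isg15 were higher in CITED than in both other groups, Irf7, Irf9, and Ifi204 rose in steps, Gbp2 and Irf1 stood apart from MDSC with both kinds of NP, and Stat2 and Eif2ak2 were lower with both.

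The 4 IFIT genes, whose products bind RNA through tetratricopeptide repeats, did not move together. In CITED against MDSC 1 was called higher (Ifit1) and 1 lower (Ifit2), and in CITED against MDSC-NP-Blk 2 were called higher (Ifit1 and Ifit3b) and 1 lower (Ifit2). In MDSC-NP-Blk against MDSC 0 were called by edgeR and by DESeq2, and 1 (Ifit2) had an unadjusted p below 0.05 in edgeR. Ifit1 binds the 5′ end of foreign RNA, and its transcript was at 15.7, 26.6, 15.7 and 14.1 in MDSC, 5.1, 15.2, 28.1 and 4.68 in MDSC-NP-Blk, and 67.7, 30.6, 64.4 and 68.7 in CITED. All CITED libraries lay above all others, although CITED replicate 2 was lower than the other CITED libraries, and MDSC and MDSC-NP-Blk overlapped. The log2 fold change was 1.68 ± 0.424 (SE; adjusted p = 0.00123) in CITED against MDSC and 2.08 ± 0.439 (SE; adjusted p = 4.47e-04) in CITED against MDSC-NP-Blk. With blank NPs it was -0.40, with a wide 95% interval of -1.33 to 0.53.

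Ifit2, which forms complexes with other IFIT proteins, went the other way. It was at 219, 218, 251 and 261 in MDSC, 110, 158, 149 and 115 in MDSC-NP-Blk, and 65.2, 94.2, 58.8 and 51.3 in CITED, so that the groups did not overlap and CITED was the lowest. The log2 fold change was -0.82 ± 0.159 (SE; adjusted p = 6.48e-05) in MDSC-NP-Blk against MDSC, -1.82 ± 0.173 (SE; adjusted p = 5.15e-11) in CITED against MDSC, and -1.0 ± 0.178 (SE; adjusted p = 4.32e-05) in CITED against MDSC-NP-Blk. The last value lies at the limit of a call, and Ifit2 was not called there with DESeq2, with the length correction, or without MDSC-NP-Blk replicate 2 or 3 or CITED replicate 1, 3, or 4. Ifit3 and Ifit3b are near-identical, and 56.3% of the 31-base words of Ifit3 also occur in Ifit3b, so how reads were split between them is uncertain. Ifit3b was at 0, 1.9, 0 and 1.01 in MDSC, 0, 0, 0 and 0 in MDSC-NP-Blk, and 5.02, 7.34, 1.11 and 1.93 in CITED, so that CITED and MDSC overlapped through CITED replicate 3. It had 3 counts in total over the MDSC libraries, 0 over MDSC-NP-Blk, and 13 over CITED, which makes it at least 4.94-fold higher in CITED than in MDSC-NP-Blk (0 counts set to a floor of 3 over the group). Its call was lost when any of the MDSC-NP-Blk libraries, CITED replicate 1, or CITED replicate 2 was left out. Ifit3 itself had 11, 30, and 29 counts over MDSC, MDSC-NP-Blk, and CITED and did not pass the test in any comparison, nor did the sum of both genes, at a log2 fold change of 1.81 for Ifit3 and Ifit3b together in CITED against MDSC (adjusted p = 0.0894).

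The GTPases moved little as a group. Of the 10, 1 was called higher (Gbp2) and 1 lower (Mx1) in CITED against MDSC, 1 higher (Gbp2) and 1 lower (Mx2) in MDSC-NP-Blk against MDSC, and 0 in CITED against MDSC-NP-Blk, where DESeq2 also called 0 and edgeR gave 5 an unadjusted p below 0.05. Their median log2 fold changes were 0.21, 0.09, and 0.18, of which the first 2 turned to -0.07 and -0.17 on the scale of library totals. Gbp2, a guanylate-binding protein that coats vacuoles of pathogens, was at 414, 366, 306 and 363 in MDSC, 824, 681, 781 and 835 in MDSC-NP-Blk, and 894, 860, 769 and 752 in CITED. Every library with NPs was above every MDSC library, and MDSC-NP-Blk and CITED overlapped. The log2 fold change was 1.10 ± 0.0916 (SE; adjusted p = 4.85e-12) with blank NPs, 1.17 ± 0.0918 (SE; adjusted p = 5.24e-13) in CITED, and 0.07 (95% interval -0.11 to 0.25) between them. On library totals the first 2 values were 0.84 and 0.90 for Gbp2, and neither was called. Gbp3 rose more with blank NPs (0.78; adjusted p = 6.48e-05) than in CITED (0.40; adjusted p = 0.0366), from 92.8, 109, 107 and 101 in MDSC, 190, 165, 161 and 191 in MDSC-NP-Blk, and 166, 117, 117 and 139 in CITED. Its difference between the 2 groups with NPs had an adjusted p of 0.0634.

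Gbp7 was at 941, 1086, 1041 and 1029 in MDSC, 747, 948, 929 and 1010 in MDSC-NP-Blk, and 1096, 1127, 1085 and 1095 in CITED. It rose in CITED against MDSC-NP-Blk, by 0.27 on the log2 scale (adjusted p = 0.00835), and did not pass the test against MDSC. Gbp5, another guanylate-binding protein, fell in the same comparison by 0.40 on the log2 scale (adjusted p = 0.0269), from 199 to 252 to 138 to 197. Among the immunity-related GTPases, which act on membranes of vacuoles and organelles, Irgm1 was at 264, 295, 287 and 272 in MDSC, 333, 278, 262 and 254 in MDSC-NP-Blk, and 409, 399, 488 and 407 in CITED. All CITED libraries were above all others, with log2 fold changes of 0.61 ± 0.104 (SE; adjusted p = 6.99e-06) against MDSC and 0.60 ± 0.104 (SE; adjusted p = 3.28e-05) against MDSC-NP-Blk, and the value for blank NPs was 0.01. Igtp and Irgm2 rose in CITED against MDSC by 0.46 and 0.31. These genes overlap on the same strand by 7974 bases, and 16.5% of the words of Igtp occur in Irgm2, so their counts may not be separate. Ifi47, of the same family, rose in CITED against MDSC-NP-Blk by 0.28 and did not pass the test against MDSC.

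The Mx genes code for dynamin-like GTPases that block viral replication, and C57BL/6 mice carry a defective Mx1. Mx1 was low and variable, at 8.65, 49.5, 18.4 and 56.4 in MDSC, 15.3, 6.21, 18.8 and 16.4 in MDSC-NP-Blk, and 0, 28.1, 0 and 3.87 in CITED. Its libraries overlapped between all groups, and its call in CITED against MDSC (-2.06 ± 0.735 (SE; adjusted p = 0.0211)) was lost with DESeq2 (adjusted p = 0.126 for Mx1) and when MDSC replicate 2, MDSC replicate 4, or CITED replicate 1, 3, or 4 was left out. Mx2 was at 0, 9.52, 0.921 and 10.1 in MDSC, 0, 0, 0 and 0 in MDSC-NP-Blk, and 0, 0, 2.22 and 0 in CITED. It had 21 counts over MDSC and 0 over MDSC-NP-Blk, hence at least 6.44-fold lower with blank NPs at a floor of 3 counts over the group, and 2 counts over CITED. The counts of MDSC came almost wholly from replicates 2 and 4, and the call was lost without replicate 4. Mx2 shares 12.1% of its words with Mx1.

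The nucleic acid sensors and the ADP-ribosylation genes held 1 call among their 8 members. This was Ifi204, a DNA-binding protein of the p200 family, which was called higher with both kinds of NP. It was at 537, 560, 536 and 528 in MDSC, 1193, 1305, 1280 and 961 in MDSC-NP-Blk, and 2050, 2097, 2045 and 2209 in CITED, and no groups overlapped. Its log2 fold change was 1.14 ± 0.0774 (SE; adjusted p = 3.55e-14) in MDSC-NP-Blk against MDSC, 0.82 ± 0.0739 (SE; adjusted p = 8.99e-11) in CITED against MDSC-NP-Blk, and 1.96 ± 0.0775 (SE; adjusted p = 9.19e-21) in CITED against MDSC. Ifi204 shares 44% of its words with other genes, most of them with Ifi211 (28.1%), so its count may hold reads of those. On library totals Ifi204 was at 0.87 with blank NPs and not called.

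Zbp1, a sensor of Z-form nucleic acids, was at 403, 454, 378 and 478 in MDSC, 534, 470, 548 and 490 in MDSC-NP-Blk, and 755, 703, 868 and 694 in CITED. It rose in CITED by 0.82 ± 0.091 (SE; adjusted p = 1.91e-09) against MDSC and 0.57 ± 0.0906 (SE; adjusted p = 9.15e-06) against MDSC-NP-Blk on the log2 scale, and with blank NPs by 0.25 (adjusted p = 0.027), which turned to -0.01 for Zbp1 on the scale of library totals. Eif2ak2, the kinase PKR that halts translation on sensing double-stranded RNA, was the only one of the 5 sensors to fall. It was at 1216, 1086, 1132 and 1168 in MDSC, 800, 761, 886 and 802 in MDSC-NP-Blk, and 867, 943, 866 and 859 in CITED, and all MDSC libraries were above all others. Its log2 fold change was -0.50 ± 0.071 (SE; adjusted p = 3.87e-07) with blank NPs and -0.38 ± 0.071 (SE; adjusted p = 2.64e-05) in CITED, and MDSC-NP-Blk and CITED overlapped. Dhx58, the RNA helicase LGP2, rose by 0.35 with blank NPs and 0.46 in CITED. Ifih1, the RNA sensor MDA5, did not pass the test in any comparison, with a 95% interval of -0.03 to 0.33 in CITED against MDSC.

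Parp14, a mono-ADP-ribosyltransferase, was at 1224, 1298, 1400 and 1466 in MDSC, 1404, 1685, 1720 and 1528 in MDSC-NP-Blk, and 1835, 1920, 1904 and 1799 in CITED. It rose by 0.47 on the log2 scale in CITED against MDSC (adjusted p = 4.29e-07) and by 0.23 against MDSC-NP-Blk (adjusted p = 0.0107). With blank NPs it rose by 0.24 (adjusted p = 0.005), a value that was -0.03 for Parp14 on the scale of library totals. Parp9, at 503, 643, 586 and 598 in MDSC, 639, 632, 705 and 658 in MDSC-NP-Blk, and 757, 717, 756 and 744 in CITED, rose in CITED against MDSC by 0.35 (adjusted p = 3.52e-04). Its partner Dtx3l, a ubiquitin ligase that binds PARP9, was at 1110 to 1192 without NPs, 1143 to 1229 with blank NPs, and 1080 to 1284 in CITED. The 95% interval of its log2 fold change in CITED against MDSC was -0.11 to 0.16, so that a change of the size called elsewhere lies outside it. Parp9 and Dtx3l overlap head to head by 682 bases, and the use of strand in the counting is not stated.

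The other antiviral effectors held 6 of the 13 calls of a higher level in CITED against MDSC (Rtp4, Slfn5, Xaf1, Rsad2, Ifitm3, and Bst2), 2 of the 4 in MDSC-NP-Blk against MDSC (Rtp4 and Ifitm3), and 4 of the 8 in CITED against MDSC-NP-Blk (Rtp4, Slfn5, Rsad2, and Xaf1). None was called lower, and the median log2 fold changes of the 11 were 1.43, 0.31, and 0.96. Rtp4, a chaperone of membrane receptors that also restricts flaviviruses, had the largest fold change of the 35 better expressed members in all 3 comparisons. It was at 20.4, 25.7, 19.3 and 29.2 in MDSC, 71.4, 67.6, 71.9 and 56.1 in MDSC-NP-Blk, and 337, 273, 447 and 395 in CITED. No groups overlapped, and each step was large, at 1.50 ± 0.206 (SE; adjusted p = 2.27e-07) for blank NPs against MDSC and 2.44 ± 0.166 (SE; adjusted p = 1.18e-13) for CITED against MDSC-NP-Blk. Against MDSC, Rtp4 was 2.84-fold higher with blank NPs and 15.4-fold higher in CITED.

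Slfn5, a Schlafen protein, was higher in CITED than in both other groups. It was at 138, 147, 177 and 168 in MDSC, 144, 130, 144 and 134 in MDSC-NP-Blk, and 656, 666, 683 and 699 in CITED. Its log2 fold change was 2.11 ± 0.103 (SE; adjusted p = 1.99e-18) in CITED against MDSC and 2.30 ± 0.105 (SE; adjusted p = 5.70e-18) in CITED against MDSC-NP-Blk, and with blank NPs it was -0.19 (95% interval -0.42 to 0.04). Rsad2, the antiviral enzyme viperin, followed the same course, at 59, 61.9, 70 and 94.6 in MDSC, 76.5, 95.2, 98 and 80.7 in MDSC-NP-Blk, and 251, 208, 194 and 233 in CITED. It was 3.11-fold higher in CITED than in MDSC (adjusted p = 4.11e-10) and 2.51-fold higher than in MDSC-NP-Blk (adjusted p = 1.29e-07). Bst2, or tetherin, which holds budding viruses at the cell surface, was at 598 to 718 without NPs, 657 to 848 with blank NPs, and 1372 to 1561 in CITED. Its log2 fold change in CITED was 1.11 ± 0.0802 (SE; adjusted p = 6.42e-14) against MDSC and 0.96 ± 0.0801 (SE; adjusted p = 1.88e-11) against MDSC-NP-Blk, and on library totals the former was 0.84 for Bst2 and not called. Lgals3bp, a secreted binding partner of galectins, rose in CITED by 0.80 and 0.83 in the same comparisons.

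Ifitm3, which blocks the fusion of viruses with endosomes, was the member with the highest level. It was at 5640, 6372, 5659 and 6018 in MDSC, 13395, 13143, 12712 and 12159 in MDSC-NP-Blk, and 16710, 15619, 15666 and 16000 in CITED. No groups overlapped, and most of the difference came with blank NPs (1.12 ± 0.0488 (SE; adjusted p = 4.25e-19)), followed by 0.32 in CITED against MDSC-NP-Blk (adjusted p = 3.83e-06). The value of Ifitm3 with blank NPs was 0.86 on library totals, below the limit of a call. Xaf1, a binding partner of the apoptosis inhibitor XIAP, was at 27.5, 36.2, 24.9 and 32.2 in MDSC, 65.1, 54.5, 31.3 and 70.2 in MDSC-NP-Blk, and 132, 125, 130 and 111 in CITED. Every CITED library stood above the rest, and MDSC and MDSC-NP-Blk overlapped through MDSC-NP-Blk replicate 3. Its log2 fold change was 0.86 ± 0.251 (SE; adjusted p = 0.00549) with blank NPs and 1.18 ± 0.232 (SE; adjusted p = 1.92e-04) in CITED against MDSC-NP-Blk, and the latter was not called without MDSC-NP-Blk replicate 3. Ifi35 rose in each step, by 0.50 with blank NPs and 0.48 in CITED against MDSC-NP-Blk. Trim30a, a ubiquitin ligase of the TRIM family, fell with blank NPs (-0.20; adjusted p = 0.0471) and rose in CITED (0.52 against MDSC; adjusted p = 8.02e-07). Cmpk2 and Ifi44 did not pass the test, and Ifi44 had 1, 2, and 7 counts over MDSC, MDSC-NP-Blk, and CITED.

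The members thus fell into several courses when all 3 comparisons were read side by side, with the adjusted p alone as the criterion. The most common, with 9 members, was a rise with blank NPs and a further rise in CITED (Irf7, Irf9, Zbp1, Ifi204, Parp14, Ifitm3, Xaf1, Ifi35, and Rtp4). In 8 members the rise passed the test in CITED against both other groups but not with blank NPs (Irgm1, Ifit1, Usp18, Isg15, Rsad2, Bst2, Slfn5, and Lgals3bp). In 4 members the rise passed with both kinds of NP but not between them (Gbp2, Gbp3, Irf1, and Dhx58), and Stat2 and Eif2ak2 fell in the same way. An ISRE core was present in 3 of the first 9, in 7 of the 8, in 2 of the 4, and in Stat2 and Eif2ak2. In 5 members no comparison passed the test (Ifit3, Ifih1, Dtx3l, Cmpk2, and Ifi44). The remaining 11 were spread over 7 other courses, of which those of Ifit2 (lower in every comparison) and Trim30a (lower with blank NPs and higher in CITED) held 1 member each. A test passed in 1 comparison and missed in another does not show that the sizes differ.

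**Figure D3:**
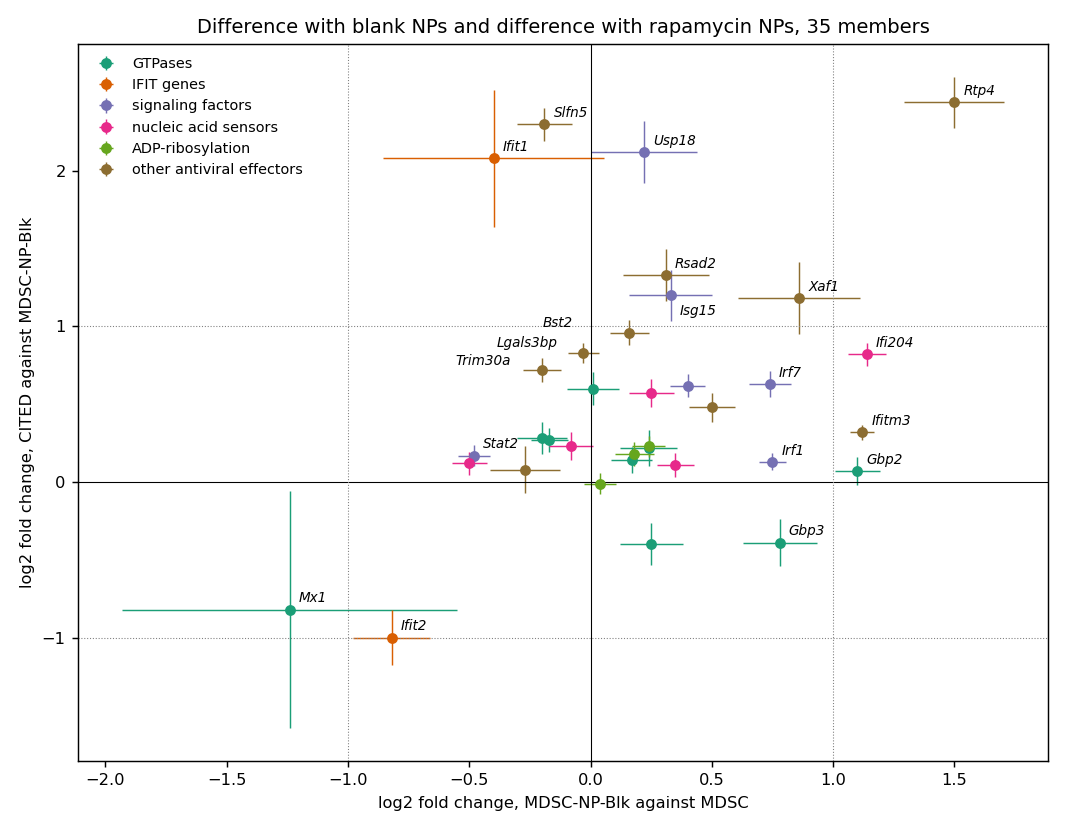
Log2 fold change in MDSC-NP-Blk against MDSC (x axis) and in CITED against MDSC-NP-Blk (y axis) for the 35 members with a mean normalized count of at least 10; bars are SE, colours give the role, and dotted lines mark a log2 fold change of 1. Usp18, Slfn5, and Ifit1 lie high near the middle of the x axis, Gbp2, Ifitm3, and Irf1 lie to the right near 0 on the y axis, and Rtp4 lies past the dotted line on both. The axes share the MDSC-NP-Blk libraries.

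Members of the same stretch of the genome could be compared within a library. Rsad2 and Cmpk2 lie 12.8 kb apart on chromosome 12 and in opposite directions. The log2 ratio of Rsad2 to Cmpk2 was -1.74 to -1.15 without NPs, -1.21 to -0.50 with blank NPs, and 0.20 to 0.52 in CITED, so that the CITED libraries stood apart from all others. Cmpk2, a mitochondrial nucleotide kinase, had a log2 fold change in CITED against MDSC of -0.19 (95% interval -0.49 to 0.10), against 1.64 for Rsad2. On chromosome 19 the IFIT genes follow each other in the order Ifit2, Ifit3, Ifit3b, and Ifit1, with gaps of 6.37, 18.9, and 27.5 kb. The log2 ratio of Ifit1 to Ifit2 was -4.12 to -2.99 without NPs, -4.35 to -2.36 with blank NPs, and -1.59 to 0.41 in CITED. The ends of this cluster hence went in opposite directions in CITED, while the genes between them were near the limit of detection.

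The guanylate-binding proteins on chromosome 3 (Gbp5, Gbp7, Gbp3, and Gbp2, in this order, with gaps of 7.94, 9.82, and 47.4 kb) also differed among themselves. With blank NPs, Gbp3 and Gbp2 rose and Gbp5 and Gbp7 did not pass the test. In CITED against MDSC-NP-Blk, Gbp7 rose and Gbp5 fell. Parp14, Dtx3l, and Parp9 on chromosome 16 differed less, since Parp14 and Parp9 rose in CITED against MDSC and Dtx3l did not pass the test. The log2 ratio of Parp9 to Dtx3l was -1.17 to -0.84 in MDSC and -0.84 to -0.51 in CITED.

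**Figure D4:**
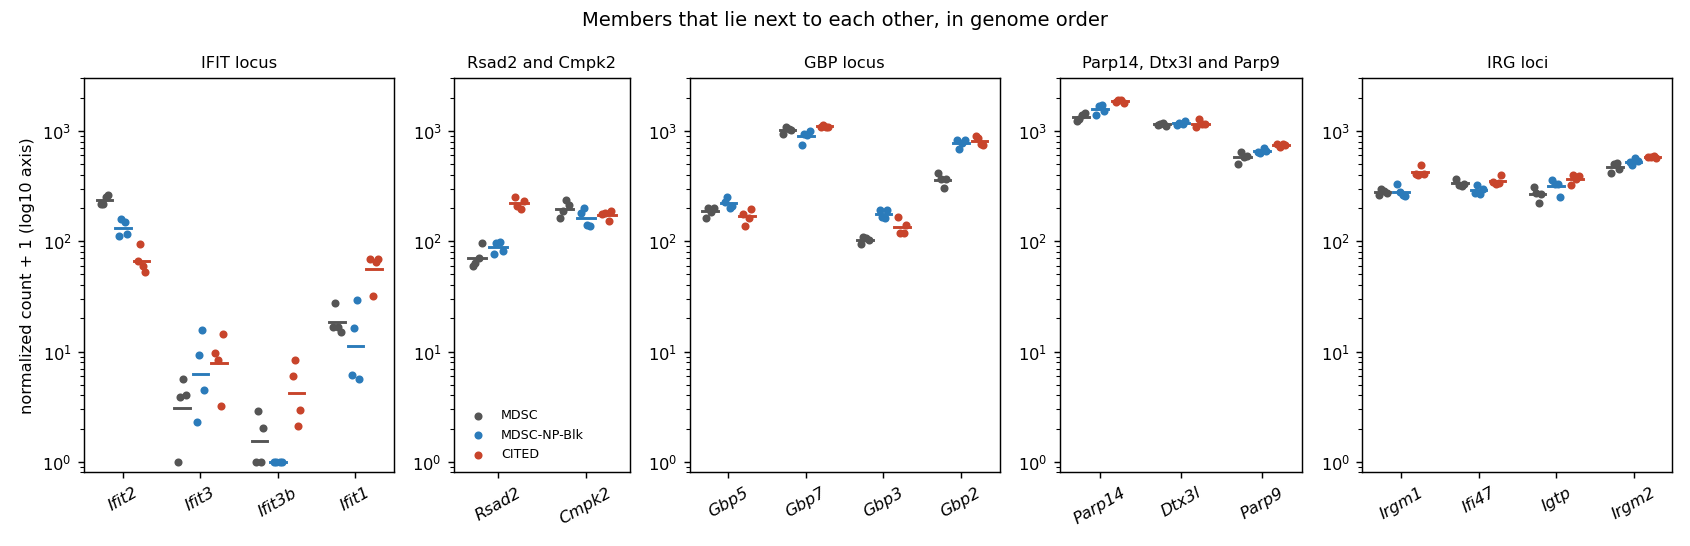
Normalized counts plus 1 (log10 axis) of members that are neighbours, in genome order within each panel; points are the 4 libraries of a group and short lines the mean on the log scale. In the IFIT locus Ifit2 is lowest and Ifit1 highest in CITED, and beside Cmpk2 only Rsad2 separates the CITED libraries from the rest; the genes of a panel can differ in length, so heights compare groups and not genes.

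Compared per kilobase of the canonical transcript, the levels ranged over several orders of magnitude. In MDSC, Ifitm3 had 4637 normalized counts per kb, followed by Bst2 with 829, Lgals3bp with 631, and Irf1 with 587. Far lower were Ifit1 with 2.43, Xaf1 with 11.4, Rtp4 with 14.8, Rsad2 with 18.9, Usp18 with 23.5, and Slfn5 with 26.3. In CITED, Rtp4 was at 227 per kb, close to Stat2 at 239, which was 297 in MDSC, and Usp18 was at 120 per kb. Ifit1 stayed low, at 7.79 per kb in CITED, and Ifitm3 reached 12529 per kb.

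Other properties of the libraries moved along with these values. Transcript length was related to relative expression over 10547 genes with a mean count of at least 50. Spearman's rho was 0.217 to 0.346 in the MDSC libraries, -0.421 to 0.0926 with blank NPs, and -0.342 to -0.187 in CITED. MDSC thus stood apart from the other groups, which overlapped. Across the 35 better expressed members the rho of length and log2 fold change was -0.38 in CITED against MDSC, -0.51 in MDSC-NP-Blk against MDSC, and -0.26 in CITED against MDSC-NP-Blk, a description over genes that share libraries. With the length trend removed, Bst2 (0.86) and Irf9 (0.99) were no longer called in CITED against MDSC, nor Ifitm3 (0.91) in MDSC-NP-Blk against MDSC, and the other higher calls of these comparisons were kept. Plasmacytoid dendritic cells are known for a high interferon output. The summed level of 7 of their markers was 952 to 1090 without NPs, 1199 to 1445 with blank NPs, and 1627 to 1857 in CITED. Of these 7, 6 were over the floor of 3 counts in MDSC and with blank NPs and 4 in CITED. The sum followed Il3ra (mean 458, 889, and 1324), whereas Tcf4, the other well-expressed marker, fell (mean 523, 417, and 372). Siglech, a defining marker, had means of 6.36, 1.07, and 0, and Klk1 was at 0 in MDSC and MDSC-NP-Blk. The sum of 7 macrophage markers, all detected in every group, was 24334 to 25862, 31862 to 34663, and 39622 to 41184 in the same order. Csf1r, Cd68, and Adgre1 were higher in CITED than in MDSC. Most of the list (C1qa, C1qb, Mrc1, and Mertk) was lower, so the sum does not describe the markers as a set. Of the 6 markers of NK cells, which produce interferon gamma, 4 were over the floor of 3 counts in MDSC, 3 with blank NPs, and 3 in CITED. Their sum was 10.1 to 26.6, 8.27 to 17.9, and 6.11 to 17.4 in this order. The sum of 7 T cell markers was 55.4 to 84.1, 51.1 to 83.4, and 55 to 74. The part of macrophage markers and of transcript length in the values of the members was not tested.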

How the data were processed

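The authors quantified paired-end reads of poly(A) RNA with Salmon (version 1.4.0 in the submitters' processing notes) against GENCODE transcripts of GRCm39, summed them with tximport, and deposited whole-number counts per gene symbol, neither normalized nor filtered, for 12 libraries. A symbol left empty (1 entry, 0 counts) was omitted. Groups and replicate numbers come from the titles.

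The 17676 symbols with at least 2 counts over all libraries were fitted with edgeR 4.0.16 (R 4.3.3; TMM, glmQLFit, glmQLFTest, group as the only term, 12 libraries), and p-values were adjusted over all symbols (Benjamini-Hochberg). Intervals are at 95%. On simulated data for CITED against MDSC (17288 genes, 200 changed), the fit recovered 200 and called 12 others at the adjusted p. With the limit on fold change as well, 150 genes were called, of which 1 was unchanged. These held all 100 of the larger changes, and a part of the smaller ones was missed. The changed genes had a mean count of at least 50 and all genes shared 1 spread, so members with low counts were not covered. The biological coefficient of variation was 9.025%. Positions, transcript lengths, and promoter windows are those of GENCODE mouse release M39 on GRCm39; the release the authors used is not given in the sources used here. Shared sequence is the percent of 31-base words of a transcript found in transcripts of other genes.

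The members, the pathway list, and the marker lists were chosen with earlier results of these data known. The values of a gene of the pathway list, which the counts over that list include, are not reported here. For each role and comparison the 2 members with the lowest p-value, and every member called against most calls of its role, have their values given by library; where called members were tied in direction, both were taken. Values of the other members, such as Isg15, Rsad2, Xaf1, Bst2, and Stat2, were chosen for the text after they were seen. The alternatives were DESeq2 1.42.0, other scalings, other filters on low counts, fits to the 8 libraries compared, a length correction (loess, span 0.5), a replicate block, no limit on fold change, a test against it (glmTreat), sums of near-identical pairs, and fits without each library in turn. Figures were drawn with matplotlib 3.10.9.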

Additional observations from a re-analysis of the deposited data

Results flagged for a closer look

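A library was singled out where, among the 4 of its group, its distance to the nearest of the others as a share of the range of the group exceeded Dixon's 95% critical value. Of 117 groups of values (39 members in 3 groups), 11 met this, where chance flags about 1 in 20. The explanations were not tested.

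Of the members with calls, Ifit1 had 30.6 normalized counts in CITED replicate 2, against 64.4 to 68.7 in the other CITED libraries (ratio 0.887), and 26.6 in MDSC replicate 2, against 14.1 to 15.7 (ratio 0.87). Both values lie towards the other group and reduce the difference between CITED and MDSC, although the groups still did not overlap. Mx1 had 28.1 in CITED replicate 2, against 0 to 3.87 in the others (ratio 0.862). Mx2 had 2.22 in CITED replicate 3 and 0 in the others (ratio 1). Irf7 had 531 in MDSC-NP-Blk replicate 1, against 468 to 472 (ratio 0.929). Irgm1 had 488 in CITED replicate 3, against 399 to 409 (ratio 0.887). Eif2ak2 had 943 in CITED replicate 2, against 859 to 867 (ratio 0.91), still below the lowest MDSC library. Ifih1 had 662 in MDSC replicate 2, against 538 to 553 (ratio 0.882). Trim30a had 832 in MDSC replicate 3, against 938 to 943 (ratio 0.957). Ifi44 had 0.952 in MDSC replicate 2 (ratio 1) and 2.34 in MDSC-NP-Blk replicate 4 (ratio 1), and 0 in the other libraries of these groups, which are differences of 1 or 2 counts.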

How the results depend on the processing

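The members called higher numbered 13 in CITED against MDSC, 4 for blank NPs against MDSC, and 8 in CITED against MDSC-NP-Blk, and those called lower 2, 1, and 1; most calls held under the alternatives, and the exceptions follow in this order of comparisons. Without a limit on fold change, 25, 13, and 21 were called higher and 4, 5, and 2 lower. A test against a log2 fold change of 1 left 9, 0, and 3 higher and 1, 0, and 0 lower. Library totals alone left 1 called higher and made 2 lower in MDSC-NP-Blk against MDSC (Gbp2, Ifi204, and Ifitm3 lost, Ifit2 gained) and 10 higher in CITED against MDSC (Bst2, Gbp2, and Irf9 lost). DESeq2 left 1 lower in CITED against MDSC and 0 lower in CITED against MDSC-NP-Blk, where Ifit3b had no adjusted p. RLE factors, the 8 libraries alone, and the length correction also left 0 lower in CITED against MDSC-NP-Blk (Ifit2). A minimum of 10 counts in 4 libraries, and sums of near-identical pairs, left 0 lower in MDSC-NP-Blk against MDSC (Mx2) and 7 higher in CITED against MDSC-NP-Blk (Ifit3b).

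Leaving out 1 library gave 12 to 14 members called higher and 1 to 2 lower in CITED against MDSC, 4 to 5 and 0 to 1 in MDSC-NP-Blk against MDSC, and 6 to 8 and 0 to 2 in CITED against MDSC-NP-Blk. Besides the losses named above, Ifi35 was gained in CITED against MDSC without MDSC replicate 1 or 2 or CITED replicate 2 or 3, Mx2 without CITED replicate 3, Xaf1 in MDSC-NP-Blk against MDSC without MDSC-NP-Blk replicate 3, and in CITED against MDSC-NP-Blk Bst2 without MDSC-NP-Blk replicate 1 and Mx1, as lower, without CITED replicate 2.

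Not every same-numbered pair deviated together by a correlation over 0.1 (correlations over 10560 genes of -0.0358 to 0.0719 for CITED and MDSC, -0.061 to 0.0271 for MDSC-NP-Blk and MDSC, and -0.071 to 0.165 for CITED and MDSC-NP-Blk), so the numbers were not taken as pairs; whether such libraries share a marrow preparation is not stated in the sources used here. With the replicate block, 0 members were called lower in MDSC-NP-Blk against MDSC (Mx2 lost) and 0 lower and 7 higher in CITED against MDSC-NP-Blk (Ifit2 and Ifit3b lost).

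Signs turned in the following values, of which the cause was not tested. On library totals the log2 fold change in MDSC-NP-Blk against MDSC was -0.01 for Gbp5, -0.02 for Igtp, -0.25 for Irgm1, -0.09 for Irgm2, -0.04 for Usp18, -0.01 for Zbp1, -0.08 for Parp9, -0.03 for Parp14, -0.22 for Dtx3l, and -0.11 for Bst2, and in CITED against MDSC it was -0.17 for Gbp7, -0.19 for Ifi47, -0.12 for Ifih1, and -0.24 for Dtx3l. The length correction gave -0.10 for Irgm1, -0.12 for Bst2, and 0.05 for Ifih1 in MDSC-NP-Blk against MDSC, -0.11 for Ifi47 in CITED against MDSC, and 0.05 for Dtx3l in CITED against MDSC-NP-Blk. Irgm1 in MDSC-NP-Blk against MDSC was -0.00 with DESeq2 and RLE factors and -0.01 with the 8 libraries alone. Without single libraries it was -0.08 to 0.05, Lgals3bp was -0.09 to 0.00 and Ifi44 -1.52 to 2.40 in that comparison, Dtx3l was -0.02 to 0.06 in CITED against MDSC and -0.05 to 0.03 in CITED against MDSC-NP-Blk, and Ifit3 was -0.21 to 0.80 in CITED against MDSC-NP-Blk. Depth limits Mx2, Ifit3, Ifit3b, and Ifi44, which had 1 to 30 counts or none in a group.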
